A study of Mus musculus with 30 samples.

Results

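The genes described here are C1qa, C1qb and C1qc, which encode the chains of complement C1q, and Apoe, Trem2 and Mrc1, genes of lipid handling and scavenging in macrophages. They are 6 named genes of the 15411 genes in the single-cell table of MOC1E1 tumours and of the 55573 in the bulk tables. They were selected on their measured levels in macrophages, monocytes, dendritic cells and T cells of these same libraries, by treatment, and on their TPM in the bulk tumours. Those levels are therefore a description, and the p-values below are not independent support. MOC1, MOC1E1 (some labels write MOC1esc1) and MOC22 are mouse oral squamous carcinoma lines grown as tumours in C57BL/6J mice. The sources used here do not say how MOC1E1 was derived. In the single-cell experiment mice with tumours received intraperitoneal antibody on days 3, 6 and 9 after inoculation. MOC1 and MOC1E1 tumours were given isotype control, antibody to PD-1 or antibody to CTLA-4, and MOC22 tumours isotype control or antibody to PD-1. Both targets restrain T cells, and the series profiles tumour T cells where treatment is answered and where it is resisted. Each treatment of a model has 1 single-cell RNA library and 1 T cell receptor library, so treatments are compared without a test. The labels call the MOC1E1 material tumour-infiltrating immune cells and the MOC1 and MOC22 RNA material tumour-infiltrating T cells. Bulk RNA came from untreated MOC1 and MOC1E1 tumours and from cultured cells of both lines, 3 libraries in each of the 4 groups. The labels list the cultures as untreated, but the names of all 6 culture columns mention interferon gamma.

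C1q is the recognition molecule of the classical complement pathway. It binds antibody on targets and dying cells and starts the cascade that deposits C4 and C3, and in tissues it is made mainly by macrophages. Apoe encodes the lipoprotein that carries cholesterol out of lipid-loaded macrophages. Trem2 encodes a surface receptor for lipids that signals through the adaptor Tyrobp, and Mrc1 encodes CD206, a scavenging receptor for mannose-rich sugars found on resident and interleukin 4-activated macrophages. Macrophages with high C1q, Apoe and Trem2 are a known population of many tumours.

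C1qb, C1qc and C1qa lie side by side on mouse chromosome 4 (GRCm38.p6, in RefSeq's gene table) at 136880126-136886200, 136889801-136892936 and 136895916-136898844, and no other gene of that table lies within the 18719 bases they span. Apoe lies on chromosome 7 (19696244-19701310), Trem2 on chromosome 17 (48346401-48352276) and Mrc1 on chromosome 2 (14229414-14332023). Promoter sequence in RefSeq's GRCm38.p6 table was found for 5 of the 6 genes, with 3 starts for Apoe. C1qa is not in that table. The 250 bases before the start are shown for C1qb and C1qc, whose levels went together from cell to cell below. They are also shown for Trem2 and Mrc1, which moved apart in macrophages with both antibodies. Capitals mark the letters GAGGAA, the core bound by the myeloid factor PU.1, or TTCCTC on the other strand.
C1qb promoter, chr4:136886201-136886450, minus strand: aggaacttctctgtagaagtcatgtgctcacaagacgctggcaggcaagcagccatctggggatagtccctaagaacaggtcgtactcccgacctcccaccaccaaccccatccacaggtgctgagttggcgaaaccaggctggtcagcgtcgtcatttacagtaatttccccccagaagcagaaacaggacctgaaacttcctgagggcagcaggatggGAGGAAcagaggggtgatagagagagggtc
C1qc promoter, chr4:136892915-136893164, minus strand: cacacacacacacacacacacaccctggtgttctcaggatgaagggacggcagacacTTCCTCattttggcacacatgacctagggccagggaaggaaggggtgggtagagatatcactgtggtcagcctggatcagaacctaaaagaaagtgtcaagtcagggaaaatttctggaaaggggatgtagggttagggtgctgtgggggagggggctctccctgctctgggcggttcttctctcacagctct
Trem2 promoter, chr17:48346151-48346400, plus strand: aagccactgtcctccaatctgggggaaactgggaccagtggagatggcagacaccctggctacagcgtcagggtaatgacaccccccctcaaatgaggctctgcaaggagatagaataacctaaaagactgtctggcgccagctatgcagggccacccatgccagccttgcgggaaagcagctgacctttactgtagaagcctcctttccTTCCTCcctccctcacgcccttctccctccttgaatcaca
Mrc1 promoter, chr2:14229164-14229413, plus strand: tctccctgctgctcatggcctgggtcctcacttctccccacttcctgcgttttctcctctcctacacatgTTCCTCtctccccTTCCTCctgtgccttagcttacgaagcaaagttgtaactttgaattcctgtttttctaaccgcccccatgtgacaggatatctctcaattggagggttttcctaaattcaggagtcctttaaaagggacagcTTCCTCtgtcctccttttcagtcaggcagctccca
These letters occur once in the C1qb, C1qc and Trem2 windows, beginning 30, 193 and 40 bases before the start, and 3 times in the Mrc1 window, at 180, 167 and 35 bases. They also occur, on either strand, in 7639 of all 32851 promoter windows of the same length (23.3%). The MAF motif TGCTGA, or TCAGCA on the other strand, occurs in 16.1% of windows (5282). Among the 5 genes it is in the C1qb window alone, 131 bases before the start. A match describes letters and is not a measured binding site.

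The isotype library of MOC1E1 held 17309104 UMIs (single transcript molecules) over 3473 barcodes. The anti-PD-1 library held 26937406 UMIs over 4928 barcodes and the anti-CTLA-4 library 14766019 over 3127. After filtering, 3374, 4724 and 3038 cells remained. Values given as 3 in a row below follow this order: isotype first, anti-PD-1 second and anti-CTLA-4 last. Between 13 and 26 barcodes were shared by any pair of these libraries. Of the receptor barcodes 81.6 to 88.5% matched a cell barcode of their own treatment and at most 0.716% one of another treatment. Cells were gated by marker genes that include none of the 6 genes: a cell without any Cd3d, Cd3e or Cd3g UMI went to the class with the most detected markers, with at least 2 of 8. The macrophage gate (8 markers, among them Adgre1, Ms4a7, Mertk, Lgmn, Pf4, Cd72, Csf1r) held 180 isotype cells (5.33% of the library), 386 anti-PD-1 cells (8.17%) and 68 anti-CTLA-4 cells (2.24%), with a median of 5117, 5204.5 and 2179.5 UMIs per cell. All 8 markers were detected in each library's gate and summed to 3182, 4169 and 2902 CPM (UMIs of these genes for each 1e+06 UMIs of the gate). The gate also held monocyte marker transcripts at 1920, 1756 and 2174 CPM and Lyz2, a lysozyme gene of monocytes and macrophages, at 4082, 2145 and 5879 CPM. NK cell markers stood at no more than 0.858 CPM in it. A receptor sequence was recorded for 0 of the 180, 386 and 68 cells.

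Within each library the C1q genes were the sharpest mark of the macrophage gate among the 6. With isotype, C1qb stood at 4857 CPM (exact 95% Poisson interval 4731 to 4985), C1qa at 3567 (3459 to 3677) and C1qc at 3288 (3185 to 3394), and the 3 together at 11712 CPM. These intervals, like all those given for single cells, cover counting error alone and not the spread between mice. The kit reads 1 end of each molecule, so counts of different genes can be set side by side without scaling to length. Apoe stood at 3036 CPM (2937 to 3138), Mrc1 at 134 (114 to 157) and Trem2 at 103 (85.4 to 123). At least 1 C1q UMI was seen in 85.0% of macrophage-gate cells with isotype, an Apoe UMI in 92.8%, a Trem2 UMI in 33.9% and an Mrc1 UMI in 23.9%. The order of levels in the gate was therefore C1qb, C1qa, C1qc, Apoe, Mrc1 and Trem2, and neighbours down to Mrc1 differ beyond their counting intervals. The intervals of Mrc1 and Trem2 overlap. Single cells ranged widely: the summed C1q level per cell had quartiles of 5805 and 19172 CPM around a median of 12741, from 0 to 45635.

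The monocyte gate (Ly6c2, Ccr2, Plac8, Chil3, Vcan, Ms4a4c, Hp, Thbs1) held far less C1q but a considerable level of Apoe and Trem2. With isotype its 696 cells had a summed C1q level of 457 CPM, 25.6-fold below the macrophage gate (interval 24.5 to 26.8). Apoe stood at 844 CPM there, 3.6-fold below (3.44 to 3.76), Mrc1 at 43.6 CPM, 3.07-fold below (2.48 to 3.79), and Trem2 at 45.9 CPM, 2.24-fold below (1.78 to 2.81). The C1q UMIs of the monocyte gate came from few cells: 46 cells with 10 or more C1q UMIs held 2143 of its 2242. Apoe was spread more evenly, with a UMI in 69.1% of the monocyte-gate cells against 11.6% for C1q. The monocyte gate thus had 1.85 Apoe UMIs per C1q UMI and the macrophage gate 0.26.

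The dendritic cell gate was close to empty of these transcripts. It held 2, 14 and 3 C1q UMIs in 73, 93 and 24 cells. Trem2 had 0 UMIs in all 3, which allows up to 4.67, 4.05 and 20.4 CPM (the limit that a count of 0 allows, 3 counts). Apoe had 5, 15 and 0 UMIs and Mrc1 0, 5 and 2. The neutrophil gate held Apoe at 130, 300 and 80.6 CPM, in 8.67, 9.54 and 5.31% of its cells, while its summed C1q level was 67.8, 8.33 and 8.96 CPM.

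**Figure D1:**
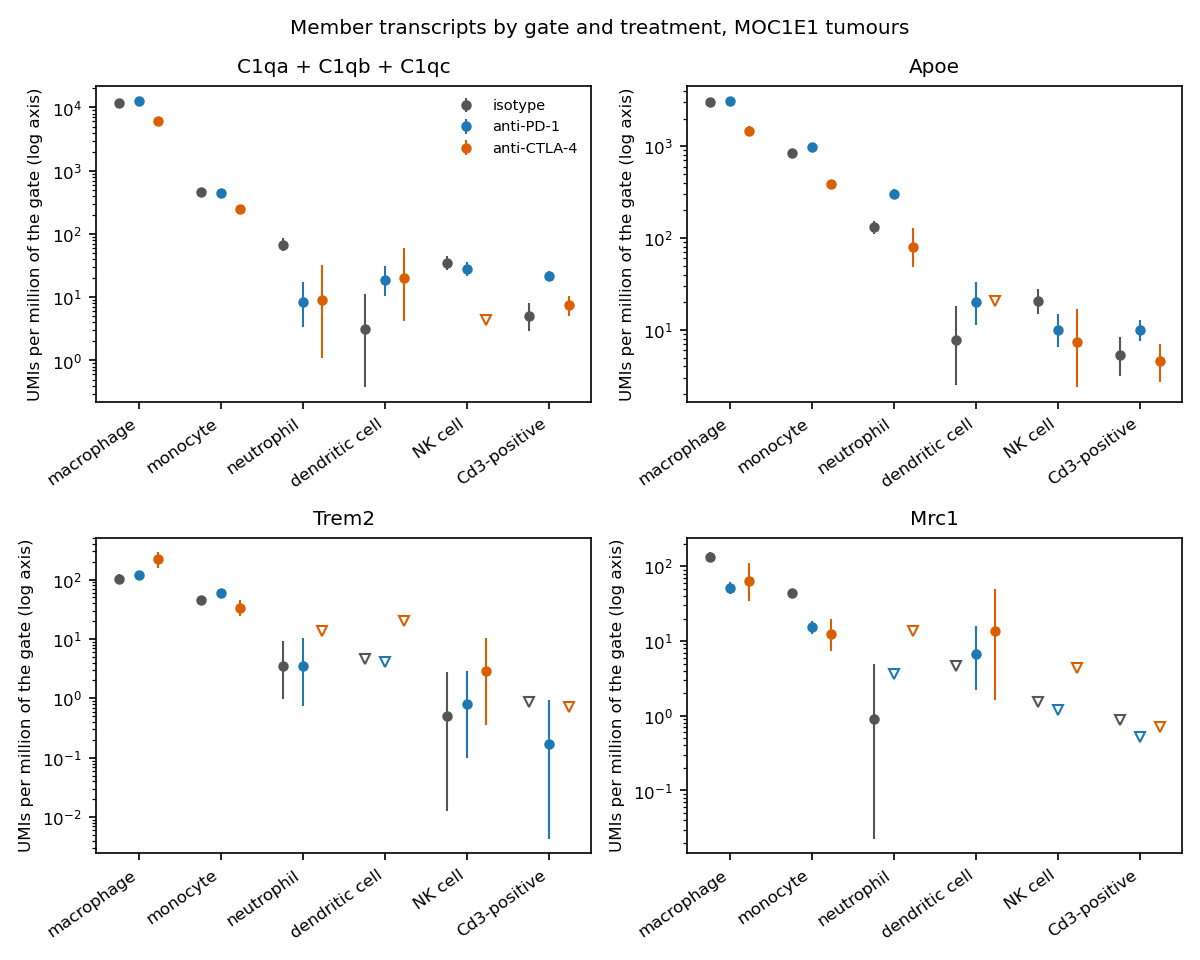
CPM (log axis) of the summed C1q genes, Apoe, Trem2 and Mrc1 in 6 gates of the MOC1E1 libraries; points are 1 library each, bars are exact 95% Poisson intervals for counting error, and open triangles stand at the limit that a count of 0 allows. The summed C1q level drops from 11712, 12811 and 6037 CPM in the macrophage gate to 457, 451 and 248 CPM in the monocyte gate, while Trem2 and Apoe drop less.

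Where a library's transcripts of each gene lay follows both level and cell number. The macrophage gate held 74.6, 72.5 and 58.4% of all C1q UMIs. It held 39.7, 44.4 and 29.0% of the Apoe UMIs, and the larger monocyte gate 46.5, 35.3 and 53.8%. Trem2 UMIs lay to 30.9, 37.6 and 38.6% in the macrophage gate and to 58.0, 45.8 and 42.1% in the monocyte gate. For Mrc1 the shares were 32.0, 39.0 and 29.5% in the macrophage and 43.9, 29.0 and 40.9% in the monocyte gate.

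**Figure D2:**
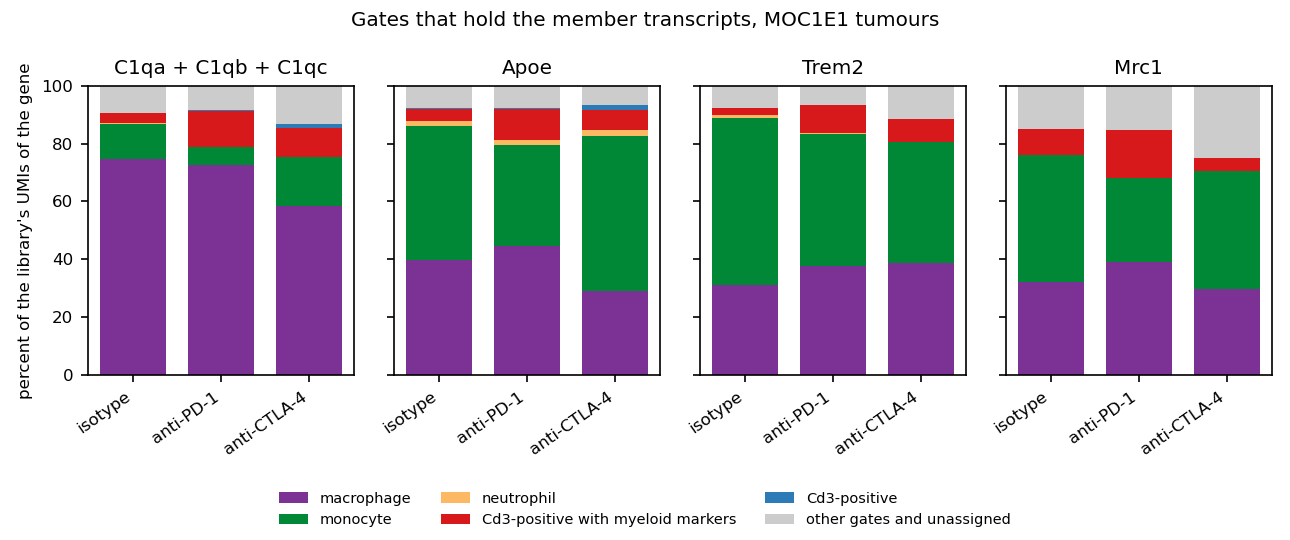
Percent of each MOC1E1 library's UMIs of the summed C1q genes, Apoe, Trem2 and Mrc1 (vertical axis) that lay in each gate, with 1 bar per treatment. Most C1q UMIs lay in the macrophage gate in each library (58.4 to 74.6%), whereas Apoe, Trem2 and Mrc1 were divided between the macrophage and monocyte gates.

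With anti-PD-1, C1q and Apoe in the macrophage gate stood close to the isotype library while Mrc1 was lower. The C1qa, C1qb and C1qc levels were 3875, 5382 and 3555 CPM, a log2 ratio to isotype of 0.12, 0.15 and 0.11. For their sum the log2 ratio was 0.13 (0.10 to 0.16), but it was -0.07 with cells thinned to 2000 UMIs and -0.11 as a mean over cells, so its direction rested on how cells were weighted. Apoe stood at 3083 CPM, a log2 ratio of 0.02 (-0.04 to 0.08) that turned to -0.22 (-0.29 to -0.16) under a stricter gate of 3 markers, -0.14 with thinned cells and -0.22 as a mean over cells. Trem2 stood at 121 CPM, a log2 ratio of 0.24 (-0.08 to 0.56). Mrc1 stood at 51.5 CPM (42.7 to 61.5), a log2 ratio of -1.38 (-1.73 to -1.03), with a UMI in 13.5% of cells against 23.9%. With cells thinned to 2000 UMIs an Mrc1 UMI was seen in 6.54% of 306 cells with anti-PD-1 and in 12% of 150 cells with isotype. Of the 6 genes, Mrc1 alone passed a 2-fold change. Of all 8462 genes with at least 20 UMIs over both libraries, 2.39% were at least 2-fold lower in this gate and 2.54% at least 2-fold higher. In the monocyte gate Mrc1 was lower as well, at 15.3 against 43.6 CPM (log2 ratio -1.51, interval -1.88 to -1.15), where 1.32% of 9839 genes were at least 2-fold lower and 0.803% at least 2-fold higher. Apoe in that gate stood at 979 CPM (log2 ratio 0.21, 0.16 to 0.27), Trem2 at 59.1 CPM (0.36, 0.12 to 0.61) and summed C1q at 451 CPM (-0.02, -0.10 to 0.06).

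With anti-CTLA-4, C1q, Apoe and Mrc1 were lower in the macrophage gate and Trem2 was higher. C1qa stood at 2075 CPM (1881 to 2284), C1qb at 2125 (1928 to 2336) and C1qc at 1838 (1655 to 2034), log2 ratios to isotype of -0.78, -1.19 and -0.84. Their sum was 6037 CPM, a log2 ratio of -0.96 (-1.04 to -0.87) that ran from -1.13 to -0.75 over the alternatives. Apoe stood at 1476 CPM (log2 ratio -1.04, -1.22 to -0.87) and was seen in 57.4% of cells against 92.8% with isotype. Its log2 ratio was -0.73 (-0.94 to -0.53) under a stricter gate of 3 markers, short of 2-fold, and -1.44 with cells thinned to 2000 UMIs. Mrc1 rested on 13 UMIs in 9 cells, 64.4 CPM (log2 ratio -1.06, -1.997 to -0.24), and under a stricter gate of 3 markers its log2 ratio was -0.36 (-1.62 to 0.68). Trem2 stood at 218 CPM (158 to 293), a log2 ratio of 1.08 (0.55 to 1.59), and over the alternatives it ran from 0.76 to 1.43. Its 44 UMIs came from 21 of 68 cells, and 1 cell held 11 of them. The share of cells with a Trem2 UMI was 30.9% against 33.9% with isotype, in shallower cells. After thinning to 2000 UMIs it was 30.6% of 36 cells against 18.7% of 150, with 32 and 30 shallower cells left out. C1qb, Apoe and Mrc1 were at least 2-fold lower and Trem2 at least 2-fold higher, beside 12.8% and 6.89% of the 6184 genes with enough UMIs. The anti-CTLA-4 gate is the smallest and shallowest of the 3, with 10 cells holding 58.0% of its 1219 C1q UMIs. The part of gate size and depth in these differences was not tested.

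The mix of C1q chains also differed in that gate. C1qb gave 41.5% of the C1q UMIs of the macrophage gate with isotype (40.6 to 42.3%, exact binomial) and 42.0% with anti-PD-1 (41.4 to 42.6%), but 35.2% with anti-CTLA-4 (32.5 to 37.9%). These intervals count each UMI as an independent draw, although few cells held most C1q UMIs of the anti-CTLA-4 gate. They do not measure the spread between cells or mice. In the monocyte gate C1qb gave 48.9, 49.0 and 49.0%. The ratio of Apoe to C1q UMIs in the macrophage gate was 0.26, 0.24 and 0.24 in the 3 libraries.

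In the monocyte gate with anti-CTLA-4, Apoe stood at 385 CPM against 844 (log2 ratio -1.13, -1.26 to -1.003), summed C1q at 248 against 457 CPM (-0.88, -1.05 to -0.72), Mrc1 at 12.6 against 43.6 CPM (-1.80, -2.58 to -1.10) and Trem2 at 33.5 against 45.9 CPM (-0.45, -0.94 to 0.00). Among 9369 genes 4.56% were at least 2-fold lower and 6.78% at least 2-fold higher in this gate. This gate was less purely monocyte with anti-CTLA-4: Lyz2 was seen in 70.9% of its cells against 97.7% with isotype and 96.3% with anti-PD-1, and NK cell markers summed to 236 CPM against 4.08 and 2.38. With cells lacking Lyz2 left out, a choice made after seeing the data, 680, 818 and 212 cells remained. The anti-CTLA-4 log2 ratios were then -0.75 for Apoe (-0.88 to -0.62), -0.50 for summed C1q (-0.67 to -0.34), -1.41 for Mrc1 (-2.20 to -0.72) and -0.06 for Trem2 (-0.55 to 0.39). Of the 6 genes Mrc1 alone was past 2-fold there. Among 9081 genes 5.46% were at least 2-fold lower and 3.74% at least 2-fold higher. The anti-PD-1 log2 ratio of Mrc1 in the same cells was -1.64, with 1.31% of 9772 genes at least 2-fold lower and 0.716% at least 2-fold higher.

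**Figure D3:**
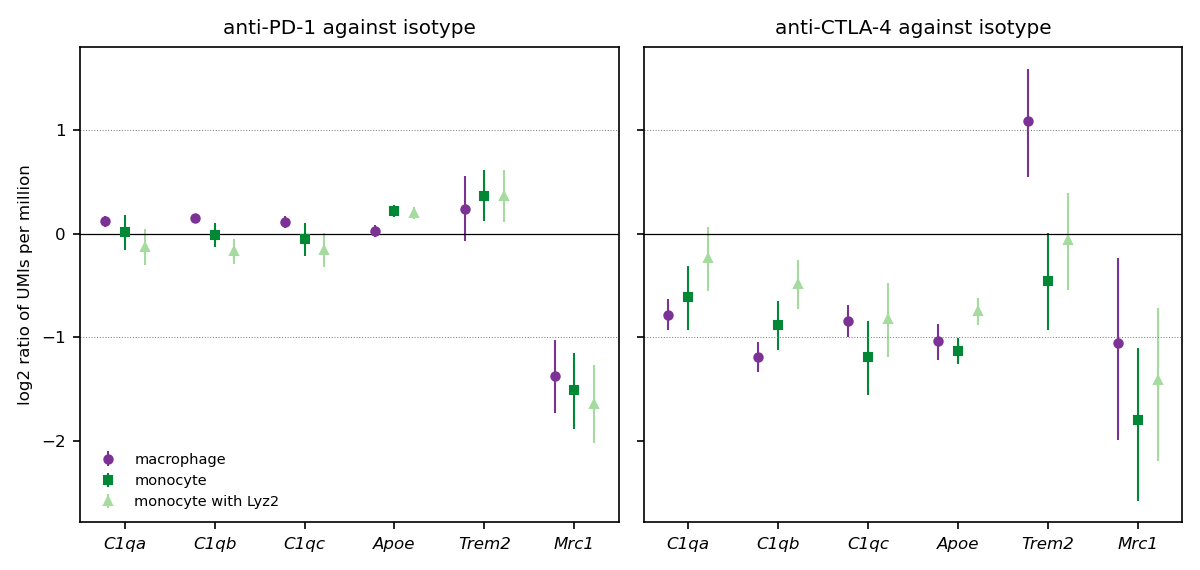
Log2 ratio of CPM to the isotype library for each gene in the macrophage gate, the monocyte gate and monocyte-gate cells with Lyz2; bars are exact 95% intervals for counting error, and dotted lines mark 2-fold. Mrc1 sits below 0 in all gates under both antibodies, and Trem2 is at 1.08 in the macrophage gate but at -0.45 and -0.06 in the monocyte gates with anti-CTLA-4.

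Across single cells of the macrophage gate, the C1q chains went together and the other genes followed them less. Spearman's rho between C1qa and C1qb was 0.85, 0.88 and 0.78 over 180, 386 and 68 cells, and between C1qa and C1qc 0.89, 0.87 and 0.90. Between summed C1q and Apoe it was 0.60, 0.35 and 0.60, between summed C1q and Trem2 0.13, 0.13 and 0.26, and between summed C1q and Mrc1 -0.15, -0.03 and 0.02. These are descriptions over cells that share a library, and Trem2 and Mrc1 counts are too sparse for a weak value to be read. Cells with a Trem2 UMI had more Apoe, at 4061, 4007 and 3188 CPM against 2450, 2301 and 568 CPM in cells without one. They were also deeper, with a median of 6603, 6796 and 3003 UMIs against 4691, 4040 and 1909. Cells with an Mrc1 UMI had a summed C1q level of 9495, 10479.8 and 6373 CPM against 12647, 13214 and 5987 CPM in cells without, so the first and second libraries were lower in such cells. The third, with 9 such cells, was not, and its intervals (5448 to 7409 against 5630 to 6360) overlap. Their median depth was 7942, 5931 and 2796 UMIs, against 4494, 5060 and 2168. Among monocyte-gate cells with Lyz2, those with an Mrc1 UMI had the higher pooled C1q level in each library. It was 1027, 1522 and 1605 CPM against 398, 354 and 236 CPM. These values rest on few cells: 14 of 57, 10 of 37 and 2 of 11 cells with an Mrc1 UMI had any C1q UMI.

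T cells are not known to make C1q, so their level in the same libraries was used as a background. The Cd3-positive gate (at least 1 Cd3 UMI and fewer than 2 markers of each myeloid class) held 698, 1219 and 942 cells, with a median of 4106, 4160 and 3932.5 UMIs. Summed C1q stood there at 5.01 CPM (17 UMIs, 2.92 to 8.02), 21.6 CPM (126 UMIs, 18.0 to 25.7) and 7.41 CPM (31 UMIs, 5.04 to 10.5). That is 0.0428, 0.169 and 0.123% of the macrophage gate of the same library. At least 1 C1q UMI was seen in 1.72, 4.27 and 1.70% of these cells. The highest single cell had 966, 2672 and 9385 CPM of summed C1q, the last above the pooled level of its library's macrophage gate. How much of this background is free RNA was not tested. Apoe stood at 5.30, 9.95 and 4.54 CPM, which is 0.175, 0.323 and 0.308% of the macrophage gate. Trem2 had 0, 1 and 0 UMIs, and Mrc1 had 0 UMIs in all 3, which allows up to 0.884, 0.515 and 0.717 CPM. The monocyte-gate levels of all 6 genes were above this background in each library. Summed C1q in the NK cell gate was 34.9 and 28.2 CPM with isotype and anti-PD-1. With anti-CTLA-4 that gate had 0 C1q UMIs (up to 4.39 CPM). The B cell gate (69, 46 and 5 cells) had summed C1q at 5.00, 421 and 0 CPM and Apoe at 120, 415 and 128 CPM. Some gates outside the myeloid classes thus also stood above this background, which leaves out cells with 2 or more markers of a myeloid class. The source of their transcripts was not tested. A level above this background therefore does not place a transcript in the gate's own cells. The log2 ratio of summed C1q in the Cd3-positive gate was 2.11 (1.37 to 2.93) with anti-PD-1, beside 1.76% of 10229 genes at least 2-fold higher and 1.81% at least 2-fold lower. With anti-CTLA-4 it was 0.57 (-0.33 to 1.51), where 2.95% of 9922 genes were at least 2-fold higher and 5.66% lower. The anti-CTLA-4 direction turned with the choice of T cells: the log2 ratio was -0.68 (-1.89 to 0.50) in Cd3-positive cells with a receptor contig, -0.91 (-1.52 to -0.29) with macrophage-marker cells alone removed and -2.38 (-2.60 to -2.16) over all Cd3-positive cells. The anti-PD-1 log2 ratio was positive under the same choices, at 1.73 (0.96 to 2.60), 1.26 (0.79 to 1.76) and 2.01 (1.89 to 2.13).

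The rule for leaving out Cd3-positive cells with myeloid markers decided how much C1q was seen in T cells. It left out 293 of 991, 745 of 1964 and 1102 of 2044 Cd3-positive cells. Of the cells left out, 90.1, 91.5 and 98.3% had 2 or more monocyte markers. Only 12.3, 21.3 and 2.63% had 2 or more macrophage markers. A monocyte marker was also seen in 54.9, 56.8 and 66.8% of the cells kept. Whether the cells left out for monocyte markers were T cells was not tested. Over all Cd3-positive cells, summed C1q stood at 114, 457 and 21.8 CPM, or 0.971, 3.56 and 0.362% of the macrophage gate. Cd3-positive cells with 2 or more macrophage markers numbered 36, 159 and 29. They held 582, 5016 and 190 of the 627, 5224 and 240 C1q UMIs of all Cd3-positive cells. Their median depth was 9061, 8799 and 8248 UMIs, above that of the Cd3-positive gate and of the macrophage gate. A receptor sequence was recorded for 63.9, 60.4 and 58.6% of them and Lyz2 was seen in 83.3, 80.5 and 72.4%. Their pooled C1q level was 1613, 3293.8 and 802 CPM, between those of the Cd3-positive and macrophage gates. Single cells were not alike: 30.6, 45.3 and 55.2% had a C1q UMI. The median per cell was 0, 0 and 177 CPM, and the highest cell had 21036, 29959 and 18633.5 CPM. Mrc1 stood at 97.0, 26.9 and 8.45 CPM in these cells. The part of captured cell pairs in these values was not tested beyond the depth and receptor counts given. With the cells of 2 or more macrophage markers alone removed, a rule added after seeing the data, C1q in Cd3-positive cells was 0.0746, 0.164 and 0.0770% of the macrophage gate.

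Other genes of complement, lipid and macrophage programmes in the macrophage gate were set beside the 6. Their lists were chosen with earlier results of these data known. Over all genes of this gate, 2.39% were at least 2-fold lower and 2.54% at least 2-fold higher with anti-PD-1. With anti-CTLA-4 the shares were 12.8% and 6.89%. They stand beside each list count of this gate below. Of 7 measured classical complement and regulator genes, 1 was at least 2-fold lower and 0 higher with anti-PD-1 (median log2 ratio -0.23, against -0.01 over all genes). C3, the central complement component, stood at 203, 199 and 683 CPM, a log2 ratio of 1.75 for the last (1.44 to 2.06). Cfb, factor B of the alternative pathway, stood at 231, 197 and 208 CPM, and Cfp, properdin, at 226, 126 and 208 CPM. With anti-CTLA-4, 1 of 5 measured genes of this list was at least 2-fold higher and 2 lower (median -0.15, against -0.09 over all genes). Of 11 complement and phagocytic receptor genes, 0 passed 2-fold with anti-PD-1 (median 0.02) and 1 was higher with anti-CTLA-4 (median -0.03). Among them the Fc receptor genes Fcgr2b (1012, 1017 and 991 CPM) and Fcgr3 (896, 907 and 624 CPM) and the integrin gene Itgax (425, 414 and 480 CPM) had the highest levels.

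Of 16 TREM2 signalling and lipid-associated genes, 1 was at least 2-fold higher and 3 lower with anti-PD-1 (median -0.01), and 5 higher and 2 lower with anti-CTLA-4 (median 0.38). Tyrobp, the adaptor of the TREM2 receptor, stood at 3280, 3392 and 2194 CPM, a log2 ratio of -0.58 (-0.73 to -0.44) with anti-CTLA-4, where Trem2 itself was higher. Lgals3, which encodes galectin 3, stood at 1725, 2050 and 2377 CPM and Ctsb, a lysosomal protease, at 1800, 1965 and 2145 CPM. Of 10 lipid uptake and cholesterol export genes, 1 was at least 2-fold higher and 0 lower with anti-PD-1 (median 0.10), and 3 higher and 1 lower with anti-CTLA-4 (median 0.47). Pltp, a phospholipid transfer protein, stood at 206, 224 and 158 CPM, the scavenger receptor gene Msr1 at 144, 153 and 198 CPM, and Soat1, which esterifies cholesterol, at 133, 133 and 223 CPM.

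Scavenger and resident macrophage genes, a list that does not hold Mrc1, were mostly lower with anti-PD-1: 5 of 7 measured genes were at least 2-fold lower and 0 higher (median -1.42). Over all genes the shares were 2.39% and 2.54%. Mgl2, a lectin gene of interleukin 4-activated macrophages, stood at 187, 49.3 and 89.2 CPM, log2 ratios of -1.92 (-2.26 to -1.59) and -1.07 (-1.85 to -0.37). Maf, a transcription factor gene of resident macrophages, stood at 80.6, 30.2 and 69.3 CPM, and the scavenger receptor gene Stab1 at 60.0, 57.0 and 104 CPM. With anti-CTLA-4, 4 of the 7 were at least 2-fold lower and 0 higher (median -1.07), beside 12.8% and 6.89% of all genes. In the monocyte gate 1 of 7 was at least 2-fold lower with anti-PD-1 (median -0.07), beside 1.32% of all genes there. Most inflammatory genes went the other way in the macrophage gate. With anti-PD-1, 8 of 11 were higher and 3 lower, 3 and 1 of them at least 2-fold (median 0.37). With anti-CTLA-4, 8 were higher and 3 lower, 7 and 1 of them at least 2-fold (median 1.601). Tnf was lower with both antibodies (log2 ratios -0.77 and -1.94). Cxcl2 (-1.91) and Ptgs2 (-0.53) were lower with anti-PD-1 and higher with anti-CTLA-4 (0.57 and 2.09). Il1b, which encodes interleukin 1 beta, stood at 823, 1076 and 2130 CPM. The interferon-gamma-induced chemokine genes Cxcl9 and Cxcl10 stood at 1082, 1402 and 1075 CPM and at 336, 857 and 1020 CPM. Arg1, arginase 1, a gene of this list that interleukin 4 also induces, was named after its value was seen. It stood at 174, 389 and 1521 CPM, and so was higher where Mrc1 and Mgl2 were lower.

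The genes whose pattern over gates and libraries was most like that of the mean C1q level were found over 18 gate-by-library profiles of at least 50 cells, by Pearson's r of log2(CPM + 10) among 10415 genes. They were Itgb5 (r = 0.98), Cfb (0.98), Ccl12 (0.97), Ms4a7 (0.97, a marker of the gate), Fam213b (0.97), Abcc3 (0.95), Rai14 (0.95) and Spon1 (0.95). For Apoe they were Apobec1 (0.97), C3ar1 (0.94), Fcgr2b (0.94) and Tmem104 (0.93), and those for Trem2 included Cfb (0.98), Myof (0.97) and Itgb5 (0.97). For Mrc1 they were Cfb (0.96), Fam213b (0.95), Itgb5 (0.95) and Ccl24 (0.95). Profiles of 1 library share its depth, and each list is led by genes highest in the macrophage gate, apart from Tmem104, which was highest in a monocyte gate. Ccl24, a chemokine gene, stood at 1744, 360 and 2541 CPM in the macrophage gate and so, like Mrc1, was lower with anti-PD-1. Unlike Mrc1 it was higher with anti-CTLA-4.

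The MOC1 and MOC22 libraries, labelled as T cells, held few macrophages. The macrophage gate had 2, 18 and 6 cells in MOC1, and 0 in both MOC22 libraries. Over all cells, summed C1q stood at 7.83, 25.7 and 5.35 CPM in MOC1 and at 6.24 and 3.67 CPM in MOC22 (isotype and anti-PD-1), against 1111, 1653 and 145 CPM in MOC1E1. In their Cd3-positive gates it was 1.88, 1.07 and 0.943 CPM in MOC1 and 2.35 and 2.96 CPM in MOC22. By point value the 5 libraries of these models thus had a lower C1q level in T cells than the 3 MOC1E1 libraries. The counting interval of MOC1E1 isotype overlapped those of MOC22 isotype (1.57 to 3.38 CPM) and MOC22 anti-PD-1 (1.98 to 4.25 CPM).

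Bulk tumours without treatment were compared between MOC1E1 and MOC1. Levels are in TPM (transcripts for each 1e+06), which are scaled to transcript length, and depth cannot be read from them. Genes were tested with limma on log2(TPM + 1), MOC1E1 minus MOC1, with Benjamini-Hochberg adjustment over 15125 genes and a call at an adjusted p of 0.05 or less. In bulk RNA, fewer cells of a type and less RNA per cell cannot be told apart. The sources used here do not say whether the 3 libraries of a group came from separate mice, so p-values measure the spread between these samples.

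All 6 genes were lower in MOC1E1 tumours than in MOC1 tumours, without overlap between the groups, as were 22.5% of all genes tested. C1qa stood at 267, 277 and 289 TPM in MOC1 and at 219, 175 and 236 TPM in MOC1E1 tumours. C1qb stood at 198, 208 and 199 against 167, 117 and 181 TPM, and C1qc at 157, 157 and 170 against 142, 87.4 and 140 TPM. The MOC1E1 library with the lowest C1q also had the lowest Apoe, which stood at 1242, 1404 and 1358 TPM in MOC1 and at 986, 371 and 1158 TPM in MOC1E1. Trem2 stood at 11.7, 13.8 and 15.5 TPM in MOC1 and at 6.34, 5.83 and 7.80 TPM in MOC1E1, and Mrc1 at 10.6, 8.03 and 9.20 against 3.6, 3.63 and 4.80 TPM. By mean level the order was Apoe, C1qa, C1qb, C1qc, Trem2 and Mrc1 in both groups. In MOC1E1 the range of C1qb overlapped those of C1qa and C1qc, and no other neighbours in that order overlapped in either group.

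**Figure D4:**
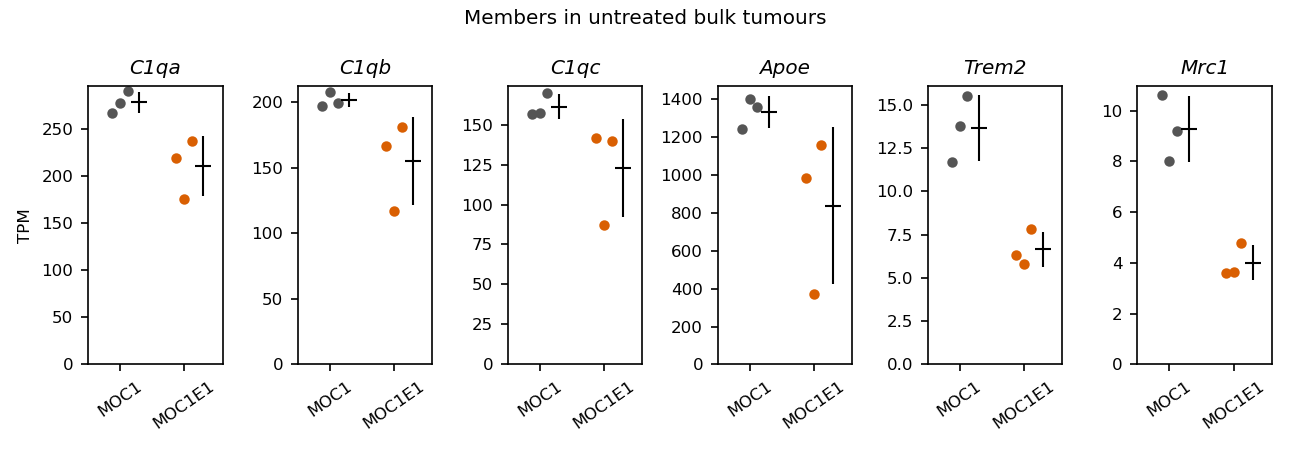
TPM of the 6 genes in 3 MOC1 and 3 MOC1E1 bulk tumour libraries (each vertical axis starts at 0; points are libraries, the bar beside them is the mean with 1 SD). Trem2 and Mrc1 are separated widely between the groups, at 13.7 against 6.66 and 9.28 against 4.01 TPM on average, while 1 MOC1E1 library sets much of the spread of Apoe.

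The test called 3 of the 6 genes lower, where 18.6% of all genes were called (11.9% lower, 6.70% higher). Mrc1 fell by 1.04 on the log2 scale (SE 0.17, adjusted p = 0.00674, limma), and Trem2 fell by 0.94 (SE 0.16, adjusted p = 0.00811, limma). Both were called in all 10 alternatives, with adjusted p from 0.00727 to 0.0298 for Mrc1 and from 0.00854 to 0.0379 for Trem2. C1qa fell by 0.41 (SE 0.11, adjusted p = 0.0441, limma), a call lost in 7 of 10 alternatives (adjusted p from 0.0342 to 0.125). C1qb, with a log2 difference of -0.40 (SE 0.15), C1qc, with -0.42 (SE 0.18), and Apoe, with -0.83 (SE 0.38), did not pass, at adjusted p of 0.110, 0.143 and 0.168 (limma). Without the MOC1E1 library of lowest Apoe, the Apoe difference was -0.32. The 8 macrophage marker genes were all lower, 0 of them called, with a median of -0.35 and sums of 203 to 243 TPM in MOC1 against 136 to 193 TPM in MOC1E1. Their part in the differences of the 6 genes was not tested. The log2 differences of Trem2, Mrc1 and Apoe were larger in size than that median, and those of the C1q genes were close to it. The Apoe difference was close to it as well without the MOC1E1 library of lowest Apoe.

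Complement genes were lower beside them: 7 of 12 classical complement and regulator genes were called lower and 0 higher (median -0.86, against -0.04 over all genes). Of all tested genes, 11.9% were called lower and 6.70% higher, and these shares stand beside each tumour list count that follows. Large falls were seen in Cd55, a regulator that speeds decay of the convertases (11.95 ± 2.48 against 1.29 ± 0.725 TPM, SD, n = 3), and in Serping1, the C1 inhibitor gene (71.8 ± 15.8 against 27.9 ± 2.42 TPM). C4b (log2 difference -1.11) and C2 (-0.997) of the classical pathway and Cfp (-0.73) and Cfb (-0.66) of the alternative pathway were also called lower. Of 11 tested complement and phagocytic receptor genes, 6 were called lower and 0 higher (median -0.54). Itgam, the alpha chain of complement receptor 3, had a log2 difference of -1.51, Fcgr3 of -1.15, Fcgr2b of -1.10, C5ar1 of -0.99, C3ar1 of -0.74 and Itgax of -0.54.

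Of 16 TREM2 signalling and lipid-associated genes, 7 were called lower and 2 higher (median -0.48). Gpnmb (-1.96), the lipase gene Lpl (-1.51), Lgals3 (-1.46), the fatty acid binding protein gene Fabp5 (-1.23), the kinase gene Syk (-0.92), Ctsl (-0.59) and Ctsb (-0.37) were lower in log2 difference, and Plin2 (0.73), which coats lipid droplets, and Cd9 (0.35) were higher. Of 12 lipid uptake and export genes, 5 were called lower (Apobr -1.20, Cd36 -1.08, Apoc2 -0.79, Abcg1 -0.61, Scarb1 -0.50) and Pltp higher (0.59), with a median of -0.40. Of 11 scavenger and resident genes, Selenop was called lower (-0.67) and Cbr2 (0.92) and Maf (0.54) higher, with a median of -0.31, so Mrc1 differed in direction from these last 2. Of 10 inflammatory genes, 4 were called lower and 0 higher (median -0.71): Arg1 (-3.05), Il1a (-2.77), Il1b (-1.75) and Cxcl2 (-1.49). Neutrophil markers were also lower, 5 of 7 called (median -1.18), as were 3 of 5 tested dendritic cell markers (median -0.63) and 2 of 8 monocyte markers (median -0.53). Fibroblast markers had 0 of 8 called (median -0.59). Cultured carcinoma cells also held transcripts of such lists. Neutrophil markers summed to 332 to 343 TPM in MOC1 and 533 to 556 TPM in MOC1E1 cultures. For monocyte markers the sums were 730 to 760 and 680 to 727 TPM, and for dendritic cell markers 267 to 284 and 218.5 to 269.3 TPM. In MOC1 tumours the 3 lists summed to 391 to 482, 356 to 479 and 103 to 113 TPM. Which cells gave the tumour differences was not tested.

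In cultured carcinoma cells the C1q genes, Trem2 and Mrc1 were at no more than 0.52 TPM in any of the 6 libraries and were not tested. Apoe was present, at 6.29, 7.47 and 8.63 TPM in MOC1 and at 5.31, 6.08 and 5.57 TPM in MOC1E1, well below its level in tumours, though the culture and tumour tables were normalized separately. Its libraries did not overlap between the groups, as with 37.1% of all genes on the lower side. Apoe fell by 0.34 on the log2 scale (SE 0.12, adjusted p = 0.0415, limma), in a comparison that called 53.4% of 13975 genes (33.2% lower, 20.2% higher), and the call was lost in 7 of 10 alternatives (adjusted p from 0.0137 to 0.218). All 6 tested complement and regulator genes were called lower in MOC1E1 cultures (median -2.47), among them C1s1 (48.9 ± 1.92 against 1.35 ± 0.317 TPM, SD, n = 3) and C1ra (16.3 ± 0.343 against 3.27 ± 0.275 TPM), the proteases that act with C1q. In tumours C1s1 and C1ra were not called, with log2 differences of -0.48 and -0.04. Of 9 tested inflammatory genes, 8 were called lower in MOC1E1 cultures and 0 higher (median -1.92). Of 12 tested TREM2 signalling and lipid-associated genes, 9 were called lower there and 1 higher (median -0.53). The part of carcinoma cells in the tumour differences of these lists was not tested. Whether these cultures were treated with interferon gamma, as the column names read, or untreated, as the labels list them, is not known.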

How the data were processed

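The members and gene lists were chosen with earlier results of these data known. Single-cell tables were deposited as UMI counts, made with Cell Ranger 3.0.2 per the submitters' processing notes and a 10x 5' kit per the labels. The deposited bulk tables hold TPM, made with Trimmomatic 0.36 and kallisto 0.46.0 per the same notes, which also list DESeq2, Seurat and the builds mm10 and GRCh38 without roles. Cells with fewer than 300 genes or over 10% mitochondrial UMIs were left out, and the highest scrublet scores (scanpy 1.11.5) were removed at 0.8% per 1000 cells, since its automatic threshold marked 4 or 5 cells per MOC1E1 library. Gates, summed CPM and exact intervals (scipy 1.17.1) followed. Gene lists count genes with at least 20 UMIs over both libraries. Named list genes are the 3 highest in the macrophage gate, and called genes in tumours. Tnf, Cxcl2, Ptgs2 and Arg1 were named in the macrophage gate after their values were seen. Bulk genes with TPM of at least 1 in 3 of 6 libraries were tested on log2(TPM + 1) by limma-trend, version 3.58.1. The fit and the likeness ranking were tested on simulated data. Alternatives are given in the closing section. The fibroblast genes Dcn, Lum, Pdgfra and Postn were not analysed here in single cells. Some genes of the lists are not reported here by name.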

Additional observations from a re-analysis of the deposited data

Results flagged for a closer look

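By point value, Trem2 differed in direction between the 2 gates that hold most of it when anti-CTLA-4 was set against isotype in MOC1E1. The log2 ratio was 1.08 in the macrophage gate (44 against 120 UMIs, interval 0.55 to 1.59). In the monocyte gate it was -0.45 (48 against 225 UMIs), with an interval of -0.94 to 0.00 that reaches no change. The difference between the gates was not tested, since each treatment has 1 library. Among monocyte-gate cells with Lyz2 the log2 ratio was -0.06, with an interval of -0.55 to 0.39.

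In the libraries of the other models, Apoe in the Cd3-positive gate was highest in MOC22 isotype, at 12.1 CPM (10.2 to 14.2), against 1.02 CPM in MOC22 anti-PD-1 and 1.20, 0.602 and 0.943 CPM in the 3 MOC1 libraries. Its 149 UMIs came from 21 of 2067 cells. Summed C1q in the same cells was 2.35 CPM (29 UMIs).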

How the results depend on the processing

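The summed C1q log2 ratio with anti-PD-1 (0.13) turned to -0.071 with cells thinned to 2000 UMIs and to -0.11 as a mean over cells. It was 0.088 under the strict gate, 0.17 in gate cells with Lyz2 and 0.16 with TMM scaling. Under thinning C1qa and C1qc turned to -0.11 and -0.15, and as a mean over cells C1qa, C1qb and C1qc turned to -0.058, -0.089 and -0.20. With anti-CTLA-4 the summed ratio (-0.96) was -1.13 with cells of at least 800 genes, -0.75 under the strict gate and -1.12 under thinning. C1q in Cd3-positive cells as a percent of the macrophage gate was 0.971, 3.56 and 0.362 (isotype, anti-PD-1, anti-CTLA-4) over all Cd3-positive cells. With macrophage-marker cells alone removed it was 0.0746 with isotype and 0.0770 with anti-CTLA-4. With anti-CTLA-4 it was also 0.0824 with cells of at least 800 genes, 0.0694 under thinning, 0.293 as a mean over cells and 0.0591 in cells with a receptor contig. The cause of these shifts was not tested. Calls in tumours (2820) were 1530, 1273 and 1520 without MOC1 library 3, 4 or 5 and 1821, 1639 and 2645 without MOC1E1 library 1, 2 or 3, where fewer samples enter, and calls in cultures (7461) ran from 6168 to 6653 with 1 library left out. Quantile normalization gave 3603 calls in tumours (1957 higher, 1646 lower, against 1014 and 1806) and 7832 in cultures (4285 higher, 3547 lower, against 2821 and 4640), and it moved the median of all culture genes from -0.06 to 0.06 and Apoe there to -0.16. No filter on low values gave 2025 calls in tumours. Trem2 and Mrc1 kept their tumour calls in all 10 alternatives. No paired analysis was possible because the columns are numbered 3, 4 and 5 for MOC1 and 1, 2 and 3 for MOC1E1 tumours, and 4 to 6 and 10 to 12 for cultures, and so share fewer than 2 numbers. Depth limits Mrc1 and Trem2 in the anti-CTLA-4 macrophage gate, which rest on 13 and 44 UMIs.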
